A study of Mus musculus with 15 samples.

Results

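Subcutaneous tumors of a mouse small cell lung carcinoma (SCLC) line were compared with normal mouse lung, gene by gene. The members were chosen by their labels: the 3 samples labelled 57SCLC_allo (tumors 275, 316 and 317) and the 3 labelled Lung (CT3, CT4 and CT5), 6 of the 15 samples of the series. The tumors are allografts of the 57SCLC line grown under the skin of immunocompetent QKO mice. QKO mice are null for Rbl1 and carry floxed, Cre-deletable alleles, those of Rb1 and Trp53 among others. The line came from a K5-QKO tumor, that is, a lung tumor that arose after a Cre adenovirus driven by the keratin 5 promoter (Ad-K5cre) was given through the trachea, so the 3 tumors descend from 1 line and carry its deletions. Lung was normal lung tissue from littermates of the recipient mice. Littermates of QKO mice would share the null Rbl1 and the unrecombined floxed alleles, but their own genotype is not given in the sources used here. For 2 further readings the tumors were set beside 3 samples of the cultured line (57SCLC_cell, flasks A, B and C) and 3 allografts of another line (46LCNEC_allo, tumors 312, 319 and 321). The latter came from a large cell neuroendocrine carcinoma of a CMV-QKO mouse and were also grown in QKO mice. Ages are not given in the sources used here, and nothing there says that the tumors or the Lung samples of a group came from separate animals, so the p values measure the spread between these samples.

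SCLC is a fast-growing carcinoma whose cells resemble the pulmonary neuroendocrine cell, a rare airway cell that stores peptide hormones and amines in dense-core granules and releases them like a nerve terminal. Loss of the RB and p53 pathways is its defining genetic feature, and proneural transcription factors such as INSM1 hold its cells in the neuroendocrine state, while Notch signaling, REST and YAP1 mark the non-neuroendocrine states. Many of these tumors also carry extra copies of a MYC family gene, often MYCL.

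RNA was selected by its poly-A tail and sequenced as paired reads, and the deposited value of a gene is a normalized count, the reads counted on the gene divided by the size factor of the sample. Between 9480244 and 20378892 reads were counted per tumor and between 23471321 and 35265695 per Lung sample. Tumor 275 was the shallowest of all 15 samples, and 1 read in it is worth 2.39 normalized counts against 0.747 to 1.42 in the other 5 samples of the comparison. Replicates of a group differed by more than counting noise, with a chi-square per degree of freedom of 17.9 to 43.9 between tumors and 27.3 to 29.0 between Lung samples. Values below are given in the order 275, 316 and 317 for tumors and CT3, CT4 and CT5 for Lung, and a fold change is the difference of mean log2(normalized count + 1), tumors over Lung, with its standard error (SE) and n = 3 per group. Adjusted p values are Benjamini-Hochberg values of limma over all genes tested. Where all samples of a group held at most 3 reads, the fold is given as a lower bound against that floor, averaged over the group, which covers counting error only.

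A gene was tested if 3 or more of the 6 samples held 10 normalized counts or more. Of the 18517 that were, 3508 were called up in the tumors (18.9%) and 4973 were called down (26.9%), at an adjusted p of at most 0.01 and a change of at least 2-fold. The median log2 fold change was 2.35 among the genes called up and -2.72 among those called down, and -0.09 over all genes tested. Changes of at least 5 on the log2 scale were found in 557 genes called up and 773 called down. Every tumor lay on 1 side of every Lung sample for 14557 genes, 78.6% of those tested. Genes called up held 27.9% to 28.5% of the normalized counts of a tumor and 4.94% to 5.20% of those of a Lung sample, and genes called down held 8.03% to 9.21% against 42.3% to 43.3%. Most calls were protein-coding genes, 2810 of those up and 4113 of those down, and 393 and 589 were long non-coding RNAs. At the extreme, 127 genes reached 50 normalized counts in all tumors while no Lung sample had more than 3 reads, and 303 had the reverse.

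**Figure D1:**
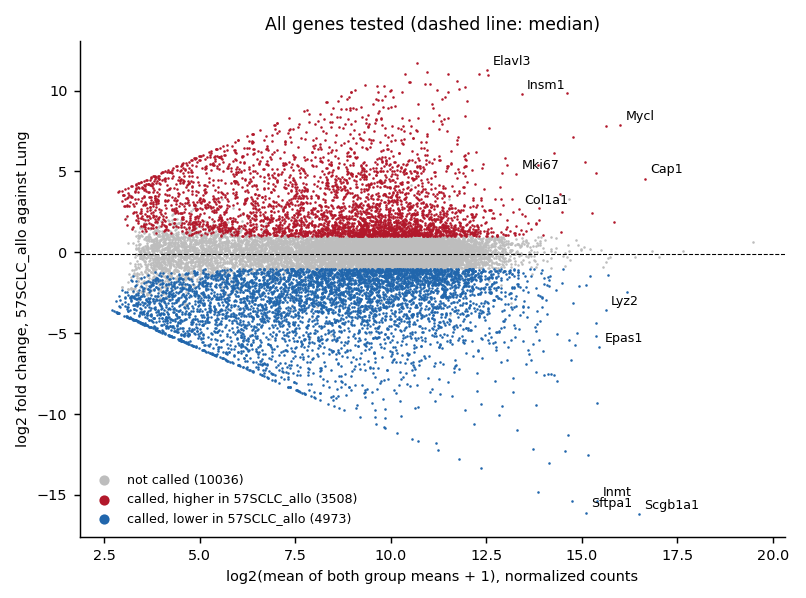
Each point is 1 of the 18517 genes tested, colored by its call. The horizontal axis is log2(mean of both group means of normalized counts + 1), and the vertical axis is the log2 fold change of 57SCLC_allo over Lung. The dashed line is the median of all genes, -0.09, the 3508 genes called up and 4973 called down spread to both sides of it, and Mycl and Cap1 stand apart among the genes with the most counts.

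The genes with the largest rises were neuronal and developmental. Elavl3, which encodes a neuronal RNA-binding protein of the Hu family, had 11689, 11894 and 11726 normalized counts in the tumors and 7.47, 1.99 and 3.51 in Lung, a log2 fold change of 11.24 (SE 0.34, adjusted p = 1.24e-07). Chga, the chromogranin A gene that serves as a standard neuroendocrine marker, had 10973, 12847 and 11748 against 7.47, 11 and 1.17, a change of 10.94 (SE 0.56, adjusted p = 1.23e-06). Both genes were thus close to absent from Lung and abundant in each tumor. Ina, which encodes the neuronal intermediate filament alpha-internexin, changed by 11.04 and Mgat5b, a glycosyltransferase gene of the brain, by 10.57, and Sez6, a neuronal membrane protein gene with at most 3 reads in each Lung sample, was at least 985-fold higher. The hair-bundle gene Grxcr2, with 3246, 3487 and 3177 normalized counts in the tumors, was listed at 0 in all Lung samples and was at least 1133-fold higher. The homeobox genes En2 and Hoxb9 were at least 1360.3-fold and 912-fold higher, with at most 3 reads in any Lung sample.

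The genes with the largest falls were products of the airway and alveolar epithelium. Scgb1a1, the secretoglobin that defines club cells, had 2.39, 0 and 3.40 normalized counts in the tumors and 151023, 219541 and 183536 in Lung, at least 37357-fold lower. Sftpa1 (surfactant protein A) was listed at 0 in all tumors and had 61757, 72148 and 78514 in Lung, at least 14321-fold lower. Inmt, a methyltransferase gene abundant in lung, was at least 17434-fold lower, Slc34a2, the phosphate transporter of alveolar type 2 cells, at least 10981-fold and the chemokine gene Cxcl15 at least 5928-fold. Sftpd and Scgb3a2, listed at 0 in all tumors, were at least 2121-fold and 1432-fold lower, and the club cell cytochrome Cyp2f2 had a log2 fold change of -13. All 8 genes were abundant in each Lung sample, and no tumor had more than 9.08 normalized counts of any. Among the genes with the most counts in Lung, Epas1, which encodes the hypoxia-inducible factor HIF-2alpha and is high in lung endothelium, went from 93102, 85922 and 84949 in Lung to 1747, 1325 and 1475 in the tumors, a log2 fold change of -5.87 (SE 0.11, adjusted p = 3.43e-08), and the adhesion gene Tns1 changed by -5.15. The mitochondrial genes mt-Co1, mt-Cytb and mt-Nd1 were not called, with changes of 0.07, -0.27 and -0.30.

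Transcription factors of the neuroendocrine lineage were mostly higher in the tumors. Of 19 tested, 13 were called up and 2 down, with a median log2 fold change of 5.30 against -0.09 over all genes. Insm1 (ENSMUSG00000068154, GRCm39 chromosome 2, 146063841 to 146066940), a zinc-finger repressor that drives neuroendocrine differentiation, had 18147, 27716 and 20112 normalized counts in the tumors and 26.2, 23.9 and 21.1 in Lung, a change of 9.78 (SE 0.17, adjusted p = 2.65e-08). Myt1, a zinc-finger factor of neuronal differentiation, had 1259, 1897 and 1674 against 3.74, 0 and 0, a change of 9.89 (SE 0.60, adjusted p = 2.87e-06). Every tumor exceeded every Lung sample for both. Further rises were those of St18 (7.49) and Myt1l (6.38), relatives of Myt1, of Onecut2 (8.27), of Prox1 (5.30) and of Sox11 (5.70). Pou3f4, a neural POU factor listed at 0 in Lung, was at least 152-fold higher. Neurod1, which defines another subtype of the human disease, Sox2 and Atoh1 were listed at 0 in all 15 samples of the series. Such a 0 may be a failed estimate, so it is no reading of subtype. Pou2f3, the tuft cell factor, stayed under the filter with at most 16.4 normalized counts.

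Factors of the lung epithelium itself moved little. Nkx2-1, which specifies lung and thyroid and is expressed by both alveolar cells and SCLC, had 24223, 28338 and 26185 normalized counts in the tumors and 12946, 14051 and 16406 in Lung, and its change of 0.86 (SE 0.12, adjusted p = 2.98e-04) was under 2-fold and was not called. All tumors were nonetheless above all Lung samples. Foxa1, a pioneer factor of endoderm, was near the 2-fold limit. It was not called either (0.97), but it was by edgeR (1.04), by DESeq2 (1.02), with TMM (1.02) or library size scaling (1.17) and without Lung sample CT3 (1.03), while its relative Foxa2 rose by 1.79. Of the factors of the non-neuroendocrine states, Rest, the repressor of neuronal genes, had 201, 160.0 and 255 in the tumors against 1249, 1181 and 1238 in Lung, a change of -2.59 (SE 0.17, adjusted p = 4.02e-06), and Yap1, the Hippo pathway coactivator, had 673, 745 and 742 against 5804, 6129.6 and 6208, a change of -3.07 (SE 0.07, adjusted p = 5.51e-08). Both were lower in every tumor.

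The machinery that makes and packs peptide hormones rose nearly as a whole. Of 14 tested granins and prohormone enzymes, 13 were called up and 1 down, with a median of 5.65. Scg2 (secretogranin II) had 3756, 5998 and 4822 normalized counts in the tumors and 14.2, 18.9 and 7.02 in Lung, a change of 8.47 (SE 0.34, adjusted p = 3.64e-07). The prohormone convertases Pcsk2 and Pcsk1 changed by 9.06 and 7.20, Vgf by 8.27 and Chgb by 5.59. Cpe, the carboxypeptidase that trims prohormones, rose by only 1.85, and the exception was Pam, the enzyme that amidates finished peptides, which had 2085, 2359.8 and 2538 in the tumors against 8396, 8505 and 6893 in Lung (-1.77).

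Few of the peptide genes themselves passed the filter. Of 24 neuropeptide and amine genes, 12 passed the filter, 7 were called up and 2 down, with a median of 2.37. Calca, which encodes calcitonin and its gene-related peptide, the classic product of pulmonary neuroendocrine cells, had 9013, 7477 and 6835 normalized counts in the tumors and 14.2, 28.9 and 22.2 in Lung, a change of 8.46 (SE 0.25, adjusted p = 9.95e-08). Ddc, the decarboxylase that makes dopamine and serotonin, had 7337, 7610.3 and 7892 against 119.6, 157 and 94.8, a change of 5.96 (SE 0.17, adjusted p = 9.13e-08). Both stood clear of Lung in every tumor. Pomc (2.51) and the vesicular amine transporter Slc18a1 (2.98) also rose. Npy was listed at 0 in the tumors and was at least 19.9-fold lower than in Lung, Penk changed by -1.95, and Grp, the bombesin-like peptide, was listed at 0 in all 15 samples.

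Genes of vesicle release showed the same direction. Of 27 tested, 23 were called up and 0 down, with a median of 4.16. Syt1, the calcium sensor of synaptic vesicles, had 6089.8, 5593 and 5244 normalized counts in the tumors and 31.4, 36.9 and 22.2 in Lung, a change of 7.53 (SE 0.19, adjusted p = 5.83e-08). Snap25, part of the membrane fusion complex, changed by 7.82, Cadps, the priming factor of dense-core vesicles, by 9.68, Cplx2 (complexin) by 5.40 and Syp (synaptophysin), a diagnostic marker of neuroendocrine tumors, by 3.55. The members that were not called, among them Vamp2 (-0.34) and Rab3a (0.44), already had 5570.1, 5787 and 6418 and 673, 647 and 649 normalized counts in Lung.

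Neural RNA-binding proteins (12 of 15 up, 0 down, median 5.55) included the splicing activators of neuronal microexons. Srrm4 had 1068, 2405 and 1903 normalized counts in the tumors, was at or under 3 reads in each Lung sample and was at least 615-fold higher, and its paralog Srrm3 had 4062, 4371 and 4505 against 6.73, 6.98 and 5.85, a change of 9.17 (SE 0.15, adjusted p = 2.65e-08). The splicing regulator Celf3 changed by 5.93, whereas Nova2 had 0.18 and was not called. Of 26 neuronal ion channels, 21 were called up and 2 down, with a median of 5.0, or 4.79 with the members absent from 1 group set at their bound. Cacna1a, the P/Q-type calcium channel of nerve terminals, had 13968, 16383 and 17591 in the tumors and 268, 283 and 295 in Lung, a change of 5.81 (SE 0.10, adjusted p = 2.65e-08). The T-type calcium channel Cacna1h (7.70) rose as well. In contrast, the L-type channel Cacna1d (-3.81) and the sodium channel Scn3a (-4.00) were called down.

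Of 25 genes of the neuronal cytoskeleton and adhesion, 21 were called up and 4 down, with a median of 4.09. Ncam1 (CD56), used in diagnosis, had 5647, 6039 and 6376 normalized counts in the tumors and 71.0, 79.8 and 77.3 in Lung, a change of 6.29 (SE 0.09, adjusted p = 2.06e-08), and Dcx (doublecortin) was at least 206-fold higher. The 4 that fell include genes of axon growth and microtubules. Stmn2 had 7.18, 14.2 and 7.94 in the tumors against 1306, 1579 and 1318 in Lung (-7.08), and Gap43 (-6.44), Mapt, the tau gene (-3.69), and Dpysl3 (-1.61) fell with it. Neurofilament Nefm varied most within the tumors, with 199, 32.6 and 37.4, so that tumor 275 held most of it. Tubb3 and Nefl were listed at 0 in all 15 samples.

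**Figure D2:**
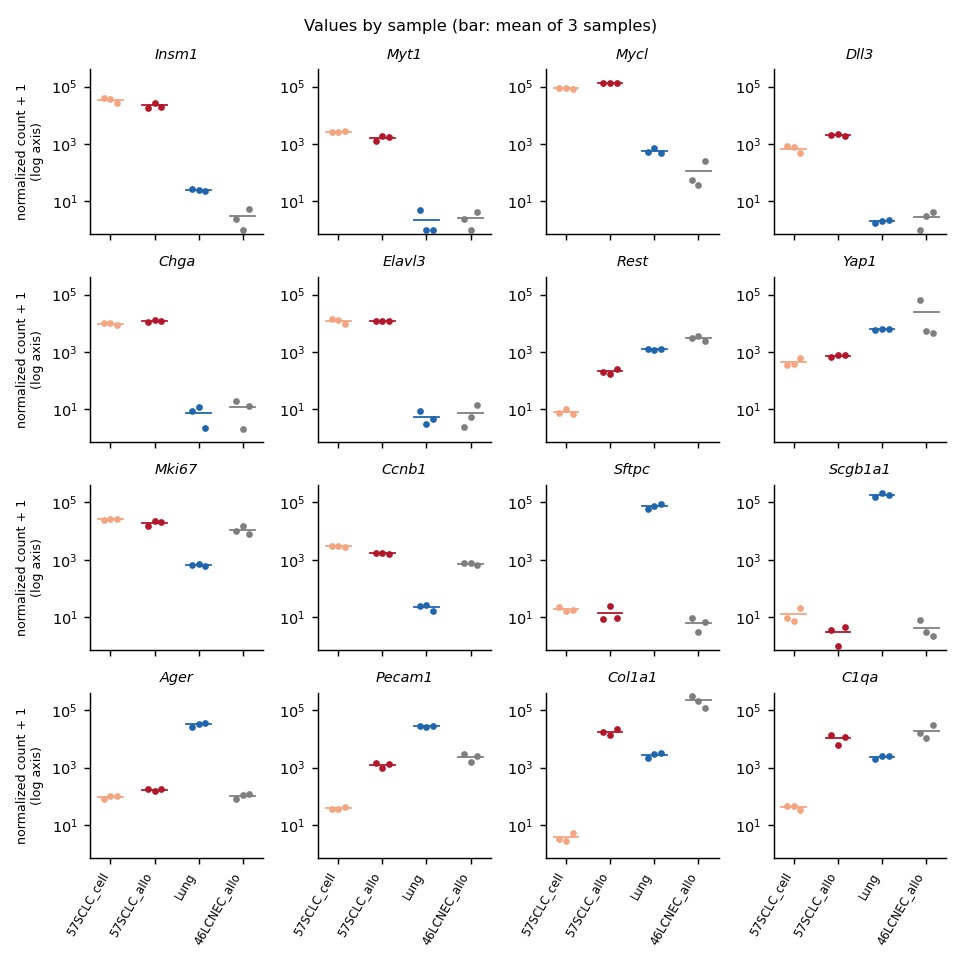
Each panel shows 1 of 16 genes, each point is 1 sample of 57SCLC_cell, 57SCLC_allo, Lung or 46LCNEC_allo on a log axis of normalized count + 1, and each bar is the mean of the 3 samples. Insm1, Myt1, Dll3, Chga and Elavl3 are high in the 57SCLC line and its tumors and near 0 in Lung, Sftpc, Scgb1a1 and Ager have the reverse pattern, and Col1a1, C1qa and Pecam1 are near 0 to low in the cultured line and well above it in its tumors.

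Members of the Notch pathway changed in both directions. Of 19 tested members 4 were called up and 10 down, with a median of -1.16. Dll3, a ligand that blocks Notch signaling within the cell and is a drug target in SCLC, had 1953, 2292 and 1812 normalized counts in the tumors and 0.747, 0.997 and 1.17 in Lung, at least 693-fold higher. The ligand-like Dner (7.39), the ligand Jag2 (2.11) and the target gene Hes5 (4.09) were the other members called up. Receptors fell, with Notch2 at 428, 349.7 and 424 in the tumors against 4448, 4422 and 3946 in Lung (-3.41 (SE 0.10, adjusted p = 1.22e-07)), Notch1 changed by -3.29 and Notch4 by -2.42. The target genes Hes1 (-2.71), Hey1 (-2.49) and Hey2 (-3.47) and the ligand Jag1 (-2.01) also fell. Hippo effectors and targets fell in 8 of 11 cases and rose in 0, with a median of -3.07. Wwtr1, the YAP1 partner also called TAZ, changed by -3.64.

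Along the genome, a stretch of chromosome 4 around Mycl stood out in the tumors. Mycl (ENSMUSG00000028654, GRCm39 chromosome 4, 122889408 to 122896282), the MYC family member most tied to SCLC, had 130278, 132708 and 128282 normalized counts in the tumors and 508, 723 and 489 in Lung, a log2 fold change of 7.85 (SE 0.15, adjusted p = 3.01e-08). By the mean of the tumors, not divided by gene length, Mycl came after only the mitochondrial gene mt-Co1 and Cap1 among protein-coding genes. In single tumors, mt-Cytb was also above Mycl in 275, and Lars2 in 316 and 317. The other factors of the MYC family did not follow. Myc had a change of -0.05 and was not called. Mycn was called down (-1.31), but not without tumor 316 (-1.17) or Lung sample CT5 (-1.04). Across all the alternatives of the processing Mycl was called, with a change between 7.75 and 8.09.

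Mycl did not stand alone. It is 1 of 5 neighbors among the 10 protein-coding genes with the highest mean counts in the tumors, with Cap1, Macf1, Rragc and Akirin1. From Ppt1 to Rragc, a span of 1100.784 kb (chromosome 4, 122730010 to 123830793), 17 protein-coding genes were tested, and 15 were called up and 2 down, with a median log2 fold change of 5.33. The ends of the span were chosen after its values were seen. The 10 tested protein-coding genes before it had a median of 0.83, with 4 called up and 2 down, and the 10 after it a median of 0.88, with 4 up and 1 down. Among 14840 windows of 7 neighboring tested protein-coding genes over all chromosomes, the 10 highest medians were all centered in this span, up to 6.13. The highest elsewhere was 5.25, around Sncb, and the median window was at -0.10. As a share of all normalized counts, the 40 genes of the span took 3.45%, 3.01% and 2.95% in the tumors and 0.165%, 0.166% and 0.177% in Lung.

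The genes of the span have unrelated functions. Cap1, which encodes an actin-recycling protein, starts near Ppt1 and had 228749, 205144 and 155341 normalized counts in the tumors and 7679, 8064 and 8906 in Lung, a change of 4.56 (SE 0.17, adjusted p = 2.43e-07). Akirin1, a nuclear cofactor gene, had 86191, 57179 and 59368 against 1484, 1297 and 1379, a change of 5.58 (SE 0.16, adjusted p = 9.28e-08). Rragc, a GTPase that signals amino acid supply to mTORC1, had 102926, 66832 and 74541 against 2616, 2628 and 2698, a change of 4.92 (SE 0.16, adjusted p = 1.44e-07). In each of the 3, the lowest tumor was far above the highest Lung sample. Between them the poly-A binding protein gene Pabpc4 changed by 7.11, the tRNA-modifying enzyme Trit1 by 6.13, the cyclophilin Ppie by 6.01, the complex I subunit Ndufs5 by 5.33 and Mycbp, which encodes a MYC-binding protein, by 5.39. The smallest rises of the span were those of Macf1, a cytoskeletal linker with 76300.0, 88342 and 110734 in the tumors and 24426, 22919 and 28161 in Lung (1.86), and of Ppt1, a lysosomal thioesterase (2.72). The paralogs Bmp8b (8.28) and Bmp8a (5.07) are so alike that reads may be split between them. Hpcal4, a neuronal calcium sensor (-2.0), and Heyl, a Notch target (-1.44), were the 2 called down.

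Beyond the span no protein-coding gene was tested for some distance on either side. The nearest before it, Rlf, starts at -1886.8 kb from the start of Mycl and had a change of 0.94 that was not called, although it was by edgeR (1.03), by DESeq2 (1.01), with library size scaling (1.15 to 1.18) and without tumor 275 (1.06). The nearest after it, Pou3f1, starts 1661.2 kb after Mycl and was not called (2.14 (SE 0.59, adjusted p = 0.0117)). It was called without Lung sample CT4 (2.77), with library size scaling (2.31 to 2.33), with a pseudocount of 5 (1.42), with all 15 samples in 1 model and at an adjusted p of 0.05, so both neighbors of the span lie near the limits of a call. Next to it Utp11 had -0.75 and was not called. In the cultured line 57SCLC_cell the span took 2.67% to 2.78% of normalized counts, and in 46LCNEC_allo 0.104% to 0.115%. Against 57SCLC_cell, where 14.4% of 17078 genes tested were called up in the tumors and 2.29% down, 1 of the 17 was called up (Heyl, 4.85) and 0 down. Against 46LCNEC_allo, where 16.1% of 17502 genes were called up and 14.2% down, 15 of the 17 were called up and 1 down (Heyl), with Hpcal4, at 0, 1.05 and 0 normalized counts in the 46LCNEC_allo tumors, now among those up and Bmp8a not called (2.19), and the median was 5.18, while the flanking 10 on each side had medians of -0.01 and -0.10. Mycl had 53, 34.7 and 260.0 normalized counts in the 46LCNEC_allo tumors. These comparisons share the 3 tumors, so they are not independent readings. DNA copy number was not analysed here, and the part of any cause in this pattern was not tested.

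**Figure D3:**
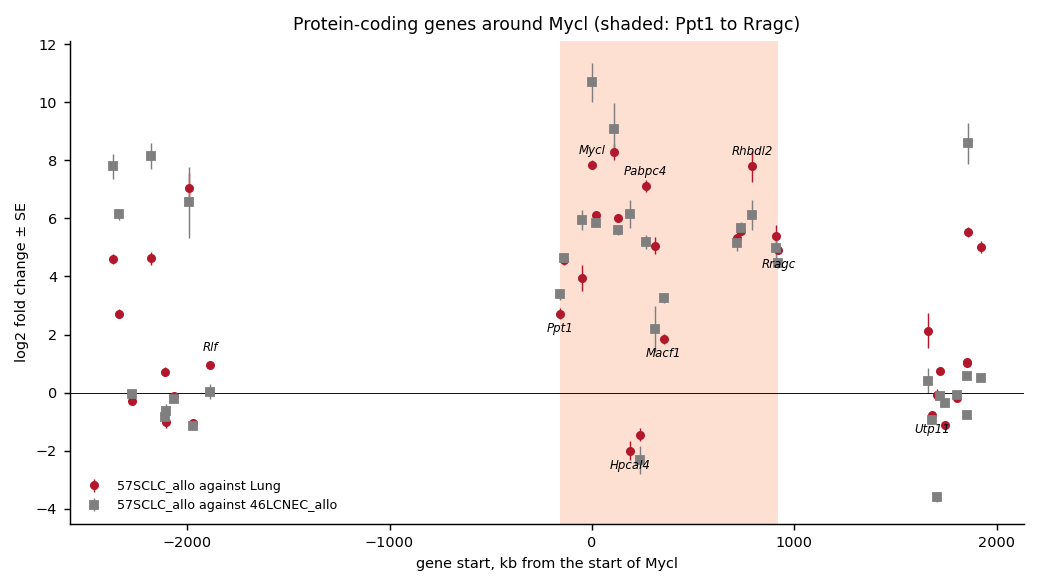
Each marker is 1 tested protein-coding gene, placed by the distance of its start from the start of Mycl in kb, with the log2 fold change and its SE on the vertical axis. Circles give 57SCLC_allo over Lung and squares 57SCLC_allo over 46LCNEC_allo, and inside the shaded stretch from Ppt1 to Rragc 15 of 17 genes were called up in each, not all of them the same, while medians outside it lie between -0.10 and 0.88.

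Genes of cell division rose as a group. All 33 tested mitosis genes were called up, with a median of 4.52. Mki67, whose protein is the standard stain for proliferating cells, had 14542, 22729 and 20107 normalized counts in the tumors and 639, 732 and 613 in Lung, a change of 4.83 (SE 0.16, adjusted p = 1.73e-07). Ccnb1 (cyclin B1) had 1685, 1782 and 1625 against 23.2, 24.9 and 15.2, a change of 6.29 (SE 0.21, adjusted p = 1.66e-07). Top2a, the topoisomerase that untangles chromosomes, had 8371, 8919.8 and 8501 against 218, 332 and 228, a change of 5.07 (SE 0.15, adjusted p = 1.25e-07). No tumor overlapped with Lung in these 3 genes. Cdk1, the mitotic kinase, changed by 5.42, its activating phosphatase Cdc25c by 5.92 and the spindle motor Kif11 by 4.95. Against 46LCNEC_allo, 2 of the genes were called up and 0 down, with a median of 0.38.

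DNA replication genes were called up in 28 of 30 cases and down in 0, with a median of 2.95, led by the polymerase subunit Pole (4.39) and the helicase subunit Mcm2 (4.04). Genes of homologous recombination and replication stress were up in 22 of 24 (median 2.53), among them Brca1 (4.07) and the checkpoint kinase Chek1 (4.99). E2F factors and G1 cyclins were mixed, with 9 up and 4 down of 16. Ccne1 (cyclin E1), which acts after RB is inactivated, rose (4.12), as did the repressor E2f8 (5.05), while the RB kinase partners Ccnd1 (-3.87), Ccnd3 (-2.31) and Cdk6 (-3.13) fell. Cdkn2a, the locus of the inhibitor p16 and of ARF, had 3378, 3402 and 3386 normalized counts in the tumors and 185, 214 and 197 in Lung, a change of 4.09 (SE 0.09, adjusted p = 3.88e-08).

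Promoters are shown for 4 mitosis genes called up that were chosen because they hold the element marked below. They therefore do not show how common the element is among these genes. Each is the 100 bases before the start from RefSeq on GRCm38.p6, 5′ to 3′ on the gene's strand. Capitals mark the cell cycle homology region TTTGAA, an element at which the DREAM repressor complex, which contains p107 (Rbl1) or p130, binds, or its reverse complement TTCAAA.
Cdk1 (chr10:69352913-69353012, minus strand): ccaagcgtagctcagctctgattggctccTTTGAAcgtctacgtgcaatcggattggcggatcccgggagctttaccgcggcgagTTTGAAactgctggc
Top2a (chr11:99024190-99024289, minus strand): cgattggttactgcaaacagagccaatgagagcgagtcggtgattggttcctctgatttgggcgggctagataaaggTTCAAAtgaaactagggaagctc
Kif11 (chr19:37376282-37376381, plus strand): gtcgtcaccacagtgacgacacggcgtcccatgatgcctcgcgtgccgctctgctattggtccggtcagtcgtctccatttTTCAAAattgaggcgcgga
Mki67 (chr7:135716380-135716479, minus strand): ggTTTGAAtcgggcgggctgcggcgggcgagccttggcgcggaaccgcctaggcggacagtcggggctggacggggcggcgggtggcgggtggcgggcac

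The element starts 71 and 15 bases before the gene start in Cdk1, 23 bases before it in Top2a, 19 in Kif11 and 98 in Mki67. Of the 33 mitosis genes called up, 27 had a promoter from RefSeq. A gene was counted if any of its promoters held the letters. Of the 27, 5 (18.5%) held TTTGAA on either strand within 100 bases. The share was 6.76% of all 27025 genes with a promoter and 4.40% of tested genes with one. Within 250 bases 7 mitosis genes did (25.9%), against 18.3% of all genes with a promoter, a smaller difference. The CCAAT box, the letters CCAAT or ATTGG, was found within 100 bases in 59.3% of the mitosis genes. For the 24 DNA replication genes with a promoter the share was 54.2%, and for all genes with one 21.6%. Within 250 bases the CCAAT box was in 66.7% of each list against 37.5%. It occurs 2 times in the Cdk1 window, 3 in that of Top2a, 1 in that of Kif11 and 0 times in that of Mki67. The E2F motif TTTCCCGC or GCGGGAAA was in 3 of the 24 DNA replication genes over 250 bases (12.5%) and in 1.03% of all genes with a promoter. Over 100 bases it was in 1 of 24 (4.17%) against 0.470%. A match of letters is a description and shows no binding.

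The suppressors altered in the model are counted over all their exons, so recombined and intact alleles cannot be told apart. Of these, Rb1 had 244, 469 and 411 normalized counts in the tumors and 297, 247 and 329 in Lung, and was not called (0.32 (SE 0.25, adjusted p = 0.281)). Trp53 had 1183, 1176 and 1016 against 1536, 1356 and 1250.2 and was not called either (-0.29 (SE 0.10, adjusted p = 0.0342)). Rbl1, the null gene of QKO mice, still had reads in both groups, 2403, 2831 and 2560.1 against 750.4, 868 and 872, and was called up (1.65 (SE 0.10, adjusted p = 2.29e-06)). Of 16 tested p53 target genes 2 were called up and 7 down, with a median of -0.65, and the CDK inhibitor Cdkn1a was among those up (1.67).

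Patterning genes of the head and nervous system were high in the tumors. Of 16 tested head and neural patterning factors, 14 were called up and 2 down, with a median of 7.2, or 6.08 with absent groups at their bound. En2, a midbrain and hindbrain factor, had 3653, 4848 and 3396 normalized counts in the tumors, and Skor2, a corepressor gene of cerebellar Purkinje cells, was listed at 0 in Lung and was at least 339-fold higher. Sim2 (9.61) and Lhx2 (8.99) rose too. Zic2 differed widely between tumors, with 40.7, 776 and 323. Of 39 Hox genes in the table only 13 passed the filter, and 8 were called up and 3 down. Several of the others, Hoxa5 among them, were listed at 0 in all 15 samples, which may be a failed estimate. Hoxb8 had 4522, 5368 and 4717 in the tumors against 25.4, 19.9 and 24.6 in Lung (7.65 (SE 0.14, adjusted p = 2.94e-08)), next to Hoxb9, and Hoxb7 changed by 3.87.

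Hox genes of low count, Hoxa9, Hoxa10 and Hoxc4, were listed at 0 in all samples of cultured 57SCLC_cell. In the tumors Hoxa9 had 110.1, 28.3 and 85.1 normalized counts, Hoxa10 had 64.6, 19.8 and 73.8 and Hoxc4 had 43.1, 43.9 and 56.7. The factors that pattern lung mesoderm and endothelium went the other way, with 13 of 19 called down, 1 up and a median of -5.31. Tbx4, the T-box factor of lung mesenchyme, was at least 933-fold lower in the tumors, and the endothelial factor Sox17 changed by -5.69. Polycomb and DNA methylation genes were up in 14 of 20 cases and down in 0 (median 1.27), with Ezh2 at 2.72 and Dnmt1 at 2.79. Lin28a, a stem cell RNA-binding protein gene, changed by 7.94.

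**Figure D4:**
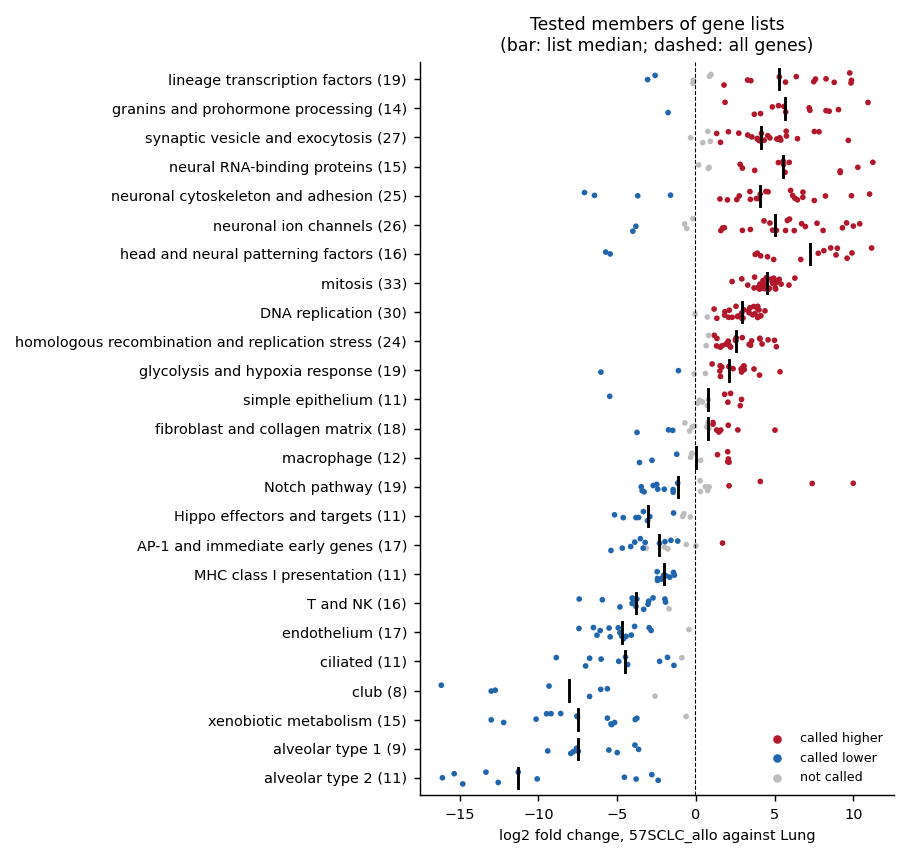
Each row is 1 of 25 gene lists, each dot a tested member at its log2 fold change of 57SCLC_allo over Lung, colored by its call, and each bar the median of the list. Mitosis (median 4.52) has every tested member above 0 and called up, alveolar type 2 markers (median -11.29) every member below 0 and called down, and the fibroblast and macrophage lists lie on both sides.

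Markers of the cell types that make up a lung were lower in the tumors nearly throughout. In bulk samples such as these, fewer cells of a type and less RNA per cell cannot be told apart. All 11 tested markers of alveolar type 2 cells, the surfactant producers, were called down (median -11.29, or -11.05 with absent groups at their bound). Their summed normalized counts were 3609.8 to 3830.1 in the tumors and 282322 to 379489 in Lung. Sftpc, the most specific of them, had 7.18, 22.6 and 7.94 in the tumors against 58062, 76025 and 85865 in Lung (-12.56 (SE 0.39, adjusted p = 1.27e-07)). All 9 markers of the flat alveolar type 1 cells were called down as well (median -7.47), among them Ager, with 175, 151 and 176 against 26968, 33362 and 37361 (-7.59 (SE 0.13, adjusted p = 2.65e-08)), and Hopx (-9.41). Of the markers of club cells 7 of 8 fell (median -8.04, at bounds -9.02), and of ciliated cells 10 of 11 (median -4.47), with their master regulator Foxj1 at -4.34.

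The xenobiotic enzymes of lung fell with them in 14 of 15 cases (median -7.52, at bounds -5.62). The flavin monooxygenase Fmo2, for instance, went from 40642, 35188 and 36054 normalized counts in Lung to 273, 106 and 285 in the tumors (-7.52 (SE 0.35, adjusted p = 6.99e-07)). Simple epithelial genes did not fall as a group, with 5 of 11 up and 1 down. The adhesion molecule Epcam rose (2.90), as did keratin Krt8 (2.21), and keratin Krt19 fell (-5.48). In 46LCNEC_allo the summed normalized count of this list was 152 to 318, against 78836 to 89038 in the 57SCLC_allo tumors, and all 11 members tested were higher in 57SCLC_allo.

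Endothelial genes were lower than in lung, an organ rich in capillaries, yet present. Of 17 tested, 16 were called down and 0 up, with a median of -4.71. Pecam1 (CD31), found on all endothelium, had 1508, 1011 and 1346 normalized counts in the tumors and 28620.2, 26063 and 27973 in Lung, a change of -4.44 (SE 0.14, adjusted p = 1.54e-07). Cultured 57SCLC_cell had 35.5, 35 and 42.7, so the tumors were higher than their own line by 5.04 on the log2 scale, and 16 of 17 members were called up against the line. The endothelial gene Vwf did not separate them, since the cultured line itself had 7072, 7389 and 7724 against 6628, 8295 and 7134 in the tumors. Markers of lung capillaries fell in 10 of 10 cases.

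Stromal genes were mixed, and the fibrillar collagen genes of the list were called up, though Col3a1 and Col5a2 (1.08 each) lost the call without tumor 317 (0.92 each) or Lung sample CT3 (0.94 each). Of 18 genes of fibroblasts and collagen matrix 8 were called up and 3 down, with a median of 0.80. Col1a1, the main fibrillar collagen, had 17116, 14152 and 22517 normalized counts in the tumors and 2105, 3024 and 3349 in Lung, a change of 2.67 (SE 0.22, adjusted p = 1.34e-05). Thbs2, a matrix glycoprotein of wound stroma, had 1463, 1986 and 2824 against 58.3, 76.8 and 50.3, a change of 5.03 (SE 0.26, adjusted p = 1.23e-06). Both were above Lung in every tumor. Pdgfra, a receptor of resident lung fibroblasts, fell (-3.74), and so did 9 of 10 genes of lung mesenchyme. In the cultured line the summed level of the fibroblast list was only 410.2 to 474, and all 18 members were called up against it. Against 46LCNEC_allo, with a sum of 836509 to 1539380.0, 16 were lower in 57SCLC_allo and 0 higher. The cultured line of those allografts, 46LCNEC_cell, itself had a sum of 483050 to 502609. Which cells made these transcripts in either allograft was not tested. Smooth muscle and pericyte genes were lower in 8 of 12 cases, except for the pericyte gene Rgs5, which rose (2.66).

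Macrophage genes differed among themselves. Of 12 tested 5 were called up and 3 down, with a median of 0.03. C1qa, a complement gene of tissue macrophages, had 14066, 6304 and 11324 normalized counts in the tumors and 1957, 2577 and 2475 in Lung, a change of 2.11 (SE 0.28, adjusted p = 2.13e-04). Lyz2 (lysozyme), which alveolar type 2 cells also make, had 6985, 6192 and 10541 against 79789.6, 91001 and 108582, a change of -3.59 (SE 0.21, adjusted p = 2.59e-06). The former was higher in every tumor and the latter lower. Arg1, an arginase of tumor macrophages, had 2119, 1206 and 2019 against 54.6, 81.8 and 51.5 (4.80 (SE 0.27, adjusted p = 1.74e-06)), and the chemokine gene Ccl8 (4.38) and Spp1, which encodes osteopontin (1.46), rose too. Csf1r, the receptor on which macrophages depend, fell (-1.22), but was not called without tumor 316 (-0.95) or with library sizes that leave out Rn18s-rs5 (-0.98). Alveolar macrophage genes fell in 5 of 8 cases and rose in 0.

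Lymphoid and antigen presentation genes were lower than in lung. Of 16 tested T and NK cell genes, 15 were called down and 0 up (median -3.78), with a summed level of 537 to 843 in the tumors and 5131 to 6089 in Lung. B cell genes fell in 8 of 9 cases, but tumor 275 had a sum of 10092 against 2959 and 2260.5 in the other tumors, and red blood cell genes had 2288 in tumor 275 against 334 and 239. All 11 tested MHC class I genes were called down (median -2.05). The class I heavy chain H2-D1 had 12819, 7138 and 9679.6 normalized counts in the tumors and 28886, 37182 and 42463 in Lung (-1.90 (SE 0.23, adjusted p = 1.37e-04)) and the peptide transporter Tap2 changed by -2.46. Compared with cultured 57SCLC_cell, 8 of 11 were called up in the tumors. Reads of near-identical H2 genes may be shared among them. Class II genes were called down in 6 of 8, except for H2-Eb1, for which Lung itself had 9659, 389 and 6888, and Ctss. H2-Eb1 was called down by DESeq2 (-3.90), at an adjusted p of 0.05, with all 15 samples in 1 model and without Lung sample CT4 (-5.33). With all 15 samples in 1 model only 3 class II genes and 9 T and NK cell genes were called down. Interferon-stimulated genes were down in 11 of 19 and up in 2, but 7 were called down with library size scaling and 6 with all 15 samples in 1 model.

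**Figure D5:**
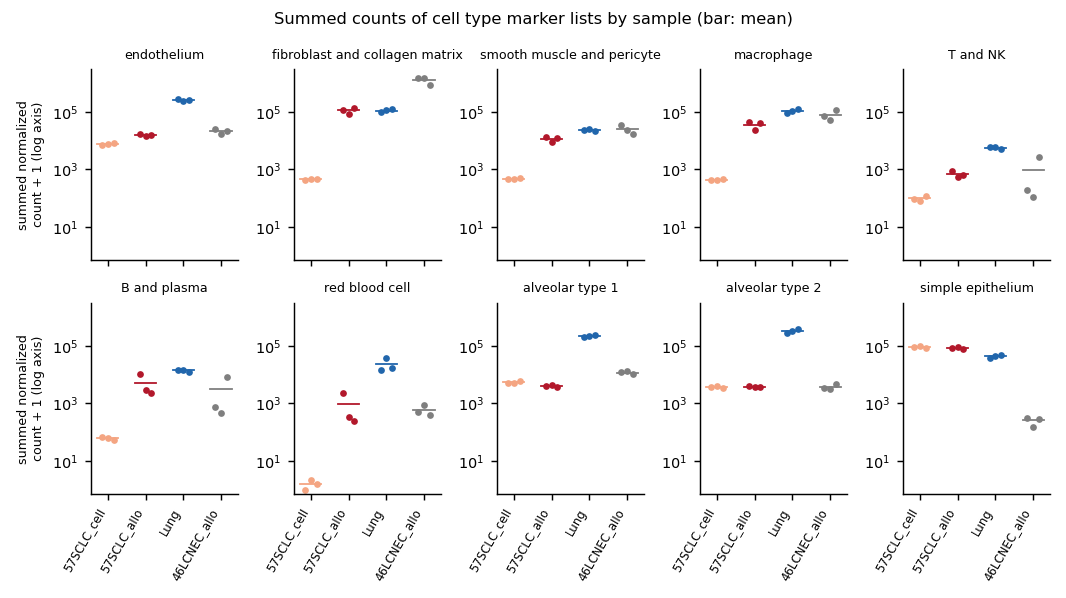
Each panel sums the normalized counts of 1 of 10 marker lists in each sample of 57SCLC_cell, 57SCLC_allo, Lung and 46LCNEC_allo, on a log axis. The 57SCLC_allo tumors lie below Lung for the lung epithelium lists (3609.8 to 3830.1 against 282322 to 379489 for alveolar type 2), overlap with Lung for fibroblasts and lie above their cultured line for endothelium, fibroblasts, macrophages and lymphocytes.

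Metabolic genes changed by pathway. Of 19 tested genes of glycolysis and the hypoxia response, 15 were called up and 2 down (median 2.09), or 1 down without tumor 316, without 317 or without any 1 of the Lung samples, by edgeR, with library size scaling or with all 15 samples in 1 model. Slc16a3, the lactate exporter MCT4, had 15478, 13522 and 12989.8 normalized counts in the tumors and 815, 787 and 944 in Lung, a change of 4.04 (SE 0.10, adjusted p = 5.83e-08). Egln3, an oxygen sensor induced by hypoxia, had 2769.6, 3808 and 3652 against 102, 103 and 52.7 (5.35 (SE 0.27, adjusted p = 1.05e-06)), while Vegfa, the angiogenic factor made in quantity by alveolar epithelium, had 12874, 14281 and 14811 against 57568, 53189 and 57383 and fell (-2.0). Serine, folate and nucleotide synthesis was up in 12 of 18 and down in 0 (median 1.24), with Psat1 of serine synthesis at 4.18 and the mitochondrial folate enzyme Mthfd2 at 3.73. Cholesterol and fatty acid synthesis stayed near the median of all genes, with 1 up and 4 down of 17 (median 0.07), and Scd1, a desaturase of surfactant lipid synthesis, fell by 6.64 on the log2 scale.

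Surface antigens under study as drug targets divided between the tissues, with 9 of 18 called up and 7 down, or 4 down by edgeR, by DESeq2 or with library size scaling. Beside Dll3, Ret (4.37) and the immune checkpoint ligand Cd276 (2.59) rose in the tumors, and the receptor tyrosine kinases Met (-5.50) and Erbb2 (-3.79) were lower. AP-1 and immediate early genes were down in 11 of 17 and up in 1 (median -2.31), but Lung samples differed among themselves, with 13527, 2077 and 31043 normalized counts of Fos against 754, 364 and 575 in the tumors. Without tumor 317 or Lung sample CT5, 7 of these genes were called down, and without CT3 6, and the 1 called up was lost when any sample other than CT4 was left out.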

How the data were processed

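The 6 samples labelled 57SCLC_allo and Lung were compared. Per the study's methods and the labels, Rbowtie2 was used by the authors for alignment to GRCm39 and featureCounts with GENCODE release 27 for counting, and gene counts were divided by DESeq2 size factors. The deposited values are therefore a normalized signal. The strand setting and the handling of multi-mapping reads are not given in the sources used here, so counts of paralogs and overlapping genes are uncertain. Each non-zero value (100% in every sample, tolerance 0.01 reads) was a whole number of reads times a constant, which gave back 9480244 to 44876572 reads per sample. Of 55359 genes 25369 were at 0 in all 15 samples, among them B2m and Tubb3, so such a 0 may be a failed estimate.

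The design had assumed raw counts. Instead, log2(normalized count + 1) was tested with limma 3.58.1 (mean-variance trend, R 4.3.3) for genes that reached 10 normalized counts in 3 samples (2 with a sample left out). Calls needed an adjusted p (Benjamini-Hochberg) of 0.01 or less and a 2-fold change, as in the study. This scale understates changes of low genes. On the recovered reads edgeR 4.0.16 called 3787 genes up and 4793 down, and DESeq2 1.42.0 was also run. In simulated data for this comparison (17843 genes), limma recovered 98% of log2 changes of 2 and 100% of 3. The changes were planted only in genes with counts well above the filter, so recovery at low counts was not simulated. Further alternatives were TMM and library size scaling, no filter, pseudocounts of 0.5 and 5, an adjusted p of 0.05, a null of 2-fold, a model of all 15 samples, and each sample left out. Chosen after seeing the data were library size without Rn18s-rs5 and, for 57SCLC_cell and 46LCNEC_allo, edgeR and samples left out.

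Named genes are the 8 largest rises and falls, the 10 protein-coding genes with the most counts per group, the 5 most variable among tumors, the deleted genes and members of gene lists. Results for some genes that the rule names are not reported here. Samples, lists and tests were chosen with earlier results of these data known, and the span around Mycl after its values were seen. Coordinates are from GENCODE release 39 (54749 identifiers matched, 98.9%), promoters from RefSeq on GRCm38.p6. Tables were made with pandas 2.3.3 and numpy 2.4.6 in Python 3.11.15, and figures with matplotlib 3.10.9.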

Additional observations from a re-analysis of the deposited data

Results flagged for a closer look

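The change from Lung differed between the 2 allograft lines for many genes. It was tested directly, by comparing 57SCLC_allo with 46LCNEC_allo, since Lung cancels out of the difference of both changes. With limma on 3 against 3 samples, 2821 genes were higher in 57SCLC_allo and 2491 were lower. The genes from Ppt1 to Rragc around Mycl were flagged by the same test, with 15 of the 17 tested protein-coding genes higher in 57SCLC_allo. The cause of these differences was not tested. In groups of 3 samples, single samples were not tested for standing apart from their group.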

How the results depend on the processing

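The test against a fold change of 2, a stricter null by its construction, called 2305 genes up and 3479 down against Lung. Over the other alternatives the counts against Lung ranged from 3473 to 4276 up and from 4367 to 5559 down. With each sample left out in turn they were 3341 to 3505 up and 4625 to 5155 down. Library size scaling moved the median log2 fold change of all genes from -0.09 to 0.12, a shift of 0.21 (0.24 without Rn18s-rs5), and gave 4167 up and 4417 down. Against 57SCLC_cell edgeR gave 2415 up and 374 down, and samples left out gave 2118 to 2641 and 285 to 374. Against 46LCNEC_allo edgeR gave 2749 and 2448, and samples left out gave 2153 to 3109 and 1965 to 2448. From Ppt1 to Rragc 15 genes were called up against Lung under every alternative run. Against 46LCNEC_allo the number was 15 to 16, and against 57SCLC_cell 1 to 2, with samples left out. None of the 787 single genes followed reversed a called direction. Calls were lost in 98 of them in the test against a fold change of 2, in 32 with all 15 samples in 1 model (Foxa2, Krt8, Heyl and Penk among them), in 24 by library size scaling and in 13 by edgeR. Library size scaling called Nkx2-1 up (1.07). No paired analysis was possible because tumors and Lung share no replicate numbers. Depth was lowest in tumor 275, where the floor of 3 reads is 7.18 normalized counts, so absence below that level was not detectable there.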

Other observations

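Other gene groups not described above gave these counts. Of all genes tested, 18.9% were called up and 26.9% down, so counts near these shares say little about a group. CDK inhibitors were called up in 5 of 8 cases and down in 1, with Cdkn2b lower in the tumors (-2.14). Oncofetal and imprinted growth genes were up in 6 and down in 3 of 14, with Peg3, a paternally expressed zinc-finger gene, at 3.25. Of 9 neutrophil genes 5 were called down and 0 up, of 7 mast cell genes 3 and 0, and of 6 cardiac muscle genes 4 and 0, and 1 of 5 skeletal muscle genes was called in each direction. The summed cardiac muscle counts differed widely within Lung, with 13285, 9585 and 609 in CT3, CT4 and CT5. In the tumors they were 140 to 163. Tuft cell genes were down in 3 of 8 cases and up in 0.

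The genes that varied most among the 3 tumors were Rnase2a, an eosinophil ribonuclease gene, with 369, 11 and 47.7 normalized counts in tumors 275, 316 and 317, and the beta-globin genes Hbb-bs, with 1853, 268 and 203, and Hbb-bt, with 323, 31.1 and 25.0. Tumor 275 was highest in each. The beta-globin genes are near-identical paralogs, so their reads may be shared. The next was 4933421A08Rik, which lies between Ppt1 and Rragc on chromosome 4, with 342, 90.6 and 1324. By chromosome, the median log2 fold change of tested genes lay between -0.30 on chromosome 6 and 0.01 on chromosome 17.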
